A study of Mus musculus with 16 samples.

Results

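FGF signaling genes of the neonatal mouse cochlea are described here: 4 ligands (Fgf3, Fgf8, Fgf10 and Fgf20), 3 receptors (Fgfr1, Fgfr2 and Fgfr3) and 3 Sprouty genes (Spry1, Spry2 and Spry4). The 10 genes were taken by symbol from the 50316 genes listed, of which 47729 had values and 16994 passed the filter on low values. All 10 passed it, Fgf3 and Fgf20 through the control libraries alone. The 16 libraries came from cochleae harvested at P4 and fall into 4 groups of 4, namely input and IP of control mice and input and IP of DTR mice. Control mice were GLAST CreERT/+; Rpl22 HA/+, in which tamoxifen puts an HA tag on the ribosomes of GLAST-Cre+ cells. DTR mice carried in addition Lgr5 DTR/+, a knock-in that puts the diphtheria toxin receptor and EGFP under endogenous Lgr5, so that diphtheria toxin (DT) ablates Lgr5+ cells. According to the methods DT and tamoxifen were given to both genotypes at P1, but the labels of the control libraries state that there was no treatment. Input is RNA from 5% of each homogenate and IP is RNA bound to HA-tagged ribosomes from the other 95%. Each of the 8 pools of cochleae gave 1 input and 1 IP library, and before lysis the tissue was freed of the spiral ganglion, the lateral wall and Reissner's membrane. GLAST-Cre marks cells of the greater epithelial ridge (GER) and inner phalangeal cells, and the tagged ribosomes come only from cells in which tamoxifen had induced recombination.

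Fibroblast growth factors are secreted proteins that bind receptor tyrosine kinases and switch on the Ras and MAP kinase cascade, and Sprouty proteins are induced by that cascade and dampen it. In the inner ear Fgf3 and Fgf10 take part in induction of the otic placode, Fgf20 is needed for formation of the organ of Corti, and Fgf8 from inner hair cells acts on neighboring Fgfr3-expressing cells that become pillar cells. Fgfr1 is needed in the prosensory domain, Fgfr2 in otic morphogenesis, and loss of Spry2 alters the number and fate of pillar cells.

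For the members that were lower after damage, the bases before the RefSeq starts of Fgf3, Fgf10 and Fgfr3 are printed 5′ to 3′ (GRCm38.p6, plus strand), without bases that GENCODE M21 gives as exon of the gene. No entry was at hand for Fgf20. The Fgf3 stretch is chr7:144838362-144838594, the Fgf10 stretch is chr13:118714449-118714698 and the Fgfr3 stretch is chr5:33721474-33721673. RefSeq gives Fgfr3 a further start, and the bases before it, chr5:33722056-33722305, lie within the M21 model and are not printed. M21 holds longer models of Fgf3 and Fgf10, which begin at positions 144838083 and 118669791, so these stretches lie between their exons, and the Fgfr3 stretch lies upstream of its model. Capitals mark matches to CTTTGA, the core of TCF/LEF sites, or to TGGGAA, the core of RBPJ sites, on either strand.
Fgf3: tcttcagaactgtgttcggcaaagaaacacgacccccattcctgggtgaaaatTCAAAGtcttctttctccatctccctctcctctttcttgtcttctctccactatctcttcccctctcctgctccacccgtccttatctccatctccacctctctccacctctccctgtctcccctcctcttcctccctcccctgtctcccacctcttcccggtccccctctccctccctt
Fgf10: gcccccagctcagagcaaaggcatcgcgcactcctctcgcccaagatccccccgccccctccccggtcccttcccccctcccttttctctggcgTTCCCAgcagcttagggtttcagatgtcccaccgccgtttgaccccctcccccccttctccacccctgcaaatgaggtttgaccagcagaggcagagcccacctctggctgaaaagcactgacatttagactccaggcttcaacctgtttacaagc
Fgfr3: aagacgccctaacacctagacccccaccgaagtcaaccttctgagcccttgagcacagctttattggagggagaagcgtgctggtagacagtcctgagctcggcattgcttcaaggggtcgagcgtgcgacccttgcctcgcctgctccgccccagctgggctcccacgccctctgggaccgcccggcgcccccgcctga
The match in Fgf3 lay 197 to 192 bases before the RefSeq start and that in Fgf10 lay 156 to 151 bases before it. Among the 6 members with a RefSeq entry, CTTTGA occurred in the 250 bases before a start of 1 member and TGGGAA in 2, Fgf10 and Fgfr2. The core of ETS sites, CCGGAA, occurred in 0 of the 6. Of all 32851 promoter entries, 13.8% held CTTTGA, 21.6% held TGGGAA and 12.0% held CCGGAA. These are matches of letters, and binding was not measured.

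The libraries held 28089836 to 41966310 reads on genes, and 3 reads corresponded to 0.0715 to 0.107 CPM (reads of a gene scaled to a common library total). Lgr5 was lower in DTR than in control, with 11.2 to 19.6 CPM in DTR input against 59.0 to 66.1 CPM in control input, and with 8.13 to 11.3 CPM in DTR IP against 31.4 to 40.0 CPM in control IP. Slc1a3, the gene of GLAST itself, had 218 to 264 CPM in control IP and 274 to 303 CPM in control input. Of 4 GER markers 0 were higher and 2 lower in control IP than in control input. Their summed level was 19724 to 26490.5 CPM in control IP and 12638 to 19695 CPM in control input. Of 4 inner phalangeal markers 1 was higher and 2 were lower, and of 6 pillar and Deiters' cell markers 2 were higher and 2 lower. In DTR mice 0 GER and 0 inner phalangeal markers were higher, and 1 and 3 were lower. Of 10 hair cell markers, 9 were lower in control IP than in control input and 7 were lower in the DTR mice, while Atoh1 was higher in the IP of both, and none was at 0. As the samples are bulk tissue, fewer cells of a type and less RNA per cell cannot be told apart.

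Levels of different genes were compared as CPM per kb of exon in GENCODE M21. In control input, Fgf10 (29.6 ± 4.80 CPM per kb, SD, n = 4), Fgfr3 (27.0 ± 3.38) and Fgfr1 (23.5 ± 0.878) stood highest, and the ranges of neighbors in this order overlapped. Spry1 (14.5 ± 2.15) and Fgfr2 (11.9 ± 0.958) followed, also with overlapping ranges. Fgf8 (4.51 ± 0.596), Spry2 (3.85 ± 0.962) and Spry4 (3.78 ± 0.584) formed the next level, and Fgf3 (2.23 ± 0.565) and Fgf20 (1.28 ± 0.411) the lowest. In DTR IP the order was different. Fgfr1 (21.9 ± 3.13 CPM per kb) and Spry1 (17.6 ± 2.74) led, Fgf10 had 12.2 ± 3.95 and Fgfr3 had 3.11 ± 0.604. Fgf20 (0.151 ± 0.107) and Fgf3 (0.0104 ± 0.0207) were at or near 0. The M21 model of Fgfr2 spans 69 other genes, so its length, and with it its level per kb, is uncertain.

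To ask how ablation of Lgr5+ cells altered these genes, DTR was compared with control, once in the input and once in the IP. Fold changes (LFC) are differences of log2(quantile-normalized CPM + 0.5), tested with limma over all 16994 genes, and a gene was called at a Benjamini-Hochberg adjusted p below 0.05. In the IP, 4 of the 10 genes were lower after damage (Fgf3, Fgf10, Fgf20 and Fgfr3) and 0 were higher, where 7.3% of all tested genes were called lower and 8.44% higher. In the input 3 were lower (Fgf3, Fgf20 and Fgfr3) and 0 higher, where 5.21% of all tested genes were called lower and 7.17% higher. Fgf3 and Fgf20 passed the filter through the control libraries alone, so a call of either could hardly be other than lower. The 10 genes were also chosen with earlier results of these data known, so these counts are a description. With the replicate number as a block, 5 were lower in the input (Fgf10 and Spry2 in addition) and 5 in the IP (Spry2 in addition). That fit called 1358 of the 16994 tested genes lower in the input and 1879 in the IP. The study's stricter criteria add to the call an LFC of at least 1 and a separation above 1.5. Separation is the lowest value of the higher group over the highest value of the lower group. Values under 1.08 CPM were first set to 1.08 CPM. This floor was taken from the genes tested here and may differ from the study's, for which the paper gives no value. The calls are those of limma, where the study used DESeq2. By these criteria 3 genes were lower in the IP (Fgf3, Fgf20 and Fgfr3) against 1.34% of all genes. In the input 2 were lower (Fgf3 and Fgfr3) against 1% of all genes. Fgf20 in the input missed them through that floor, with a separation of 1.27. Its deposited values there were at least 1.22 CPM in control and at most 0.244 CPM in DTR. The median LFC of the 10 genes was -0.36 in the IP and -0.43 in the input, beside 0.00 and -0.02 over all tested genes.

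Fgf3 (ENSMUSG00000031074, chr7:144838083-144844436, plus strand) encodes a ligand of Fgfr1 and Fgfr2. Its level was 4.36, 3.77, 6.46 and 6.13 CPM in control input and 4.22, 3.87, 6.08 and 6.18 CPM in control IP (replicates 1 to 4 throughout). In DTR input it was 0.768, 0.366, 0.434 and 0.518 CPM, from 12 to 26 reads per library. In DTR IP it was 0.0964 CPM in replicate 1, from 3 reads, and 0 in the other 3 libraries. Every DTR library lay below every control library, and within DTR mice every IP library lay below every input library. Fgf3 fell with an LFC of -3.50 ± 0.23 (SE) in the IP (limma, adjusted p = 2.5e-09) and -2.52 ± 0.23 in the input (adjusted p = 2.2e-07). These values understate the change of so low a gene: the summed reads, scaled to library size, were 10.04 times higher in control input than in DTR input (95% exact interval 7.88 to 12.95) and, from 670 reads against 3, 202 times higher in control IP than in DTR IP (68.8 to 982). Both intervals cover counting error only.

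Fgf20 (ENSMUSG00000031603, chr8:40279166-40308331, minus strand), a ligand needed for sensory differentiation, was the other ligand close to loss of signal. It had 1.22, 2.31, 2.88 and 2.17 CPM in control input and 2.78, 6.69, 8.44 and 5.36 CPM in control IP. It had 0, 0.244, 0.102 and 0.122 CPM in DTR input and 0.386, 0.427, 0.133 and 0.0658 CPM in DTR IP. All DTR libraries lay below all control libraries, and DTR input replicate 1 held 0 reads. Fgf20 fell with an LFC of -3.17 ± 0.27 in the IP (limma, adjusted p = 1.2e-07) and -2.14 ± 0.27 in the input (adjusted p = 1.8e-05). By summed reads the control level was 23.3 times the DTR level in the IP (interval 16.2 to 34.8) and 18.5 times in the input (11.2 to 32.7). Its exons share 202 bases with other genes, among them Micu3 on the opposite strand.

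Fgf10 (ENSMUSG00000021732, chr13:118669791-118792115, plus strand), which signals mainly through an isoform of Fgfr2, was the most abundant ligand and fell less. It had 162, 144, 111 and 128 CPM in control input and 142, 146, 114 and 87.0 CPM in control IP. After damage it had 110.1, 90.7, 91.1 and 59.9 CPM in the input and 76.7, 63.7, 50.3 and 34.3 CPM in the IP. DTR and control ranges did not overlap in either fraction, although the highest DTR input library, at 110.1 CPM, lay just below the lowest control input library, at 111 CPM. Fgf10 fell in the IP with an LFC of -1.18 ± 0.21 (limma, adjusted p = 6.8e-04), and its separation of 1.24 missed the study's minimum of 1.5. In the input the LFC was -0.64 ± 0.21 and was not called (adjusted p = 0.059). With the replicate number as a block it was called (adjusted p = 7.8e-04).

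Fgf8 (ENSMUSG00000025219, chr19:45736798-45742915, minus strand), made by inner hair cells, behaved differently from the other ligands. It had 5.31, 5.52, 7.01 and 6.49 CPM in control input and 7.03, 5.34, 7.23 and 8.53 CPM in DTR input. It had 2.51, 2.97, 2.82 and 2.52 CPM in control IP and 3.44, 1.82, 4.64 and 2.76 CPM in DTR IP. DTR and control libraries overlapped in both fractions. The LFC after damage was -0.02 in the IP (95% interval -0.48 to 0.44, limma, adjusted p = 0.97) and 0.14 in the input (-0.32 to 0.60, adjusted p = 0.78). Hair cell markers summed to 499 to 710 CPM in control input and 495 to 656 CPM in DTR input, and Atoh1 was the 1 marker of 10 called in that comparison (LFC -1.09). In the IP they summed to 174 to 255 CPM in control and 257 to 297 CPM in DTR, with 3 of 10 called higher after damage (Myo6, Otof and Slc17a8) and Atoh1 called lower.

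**Figure D1:**
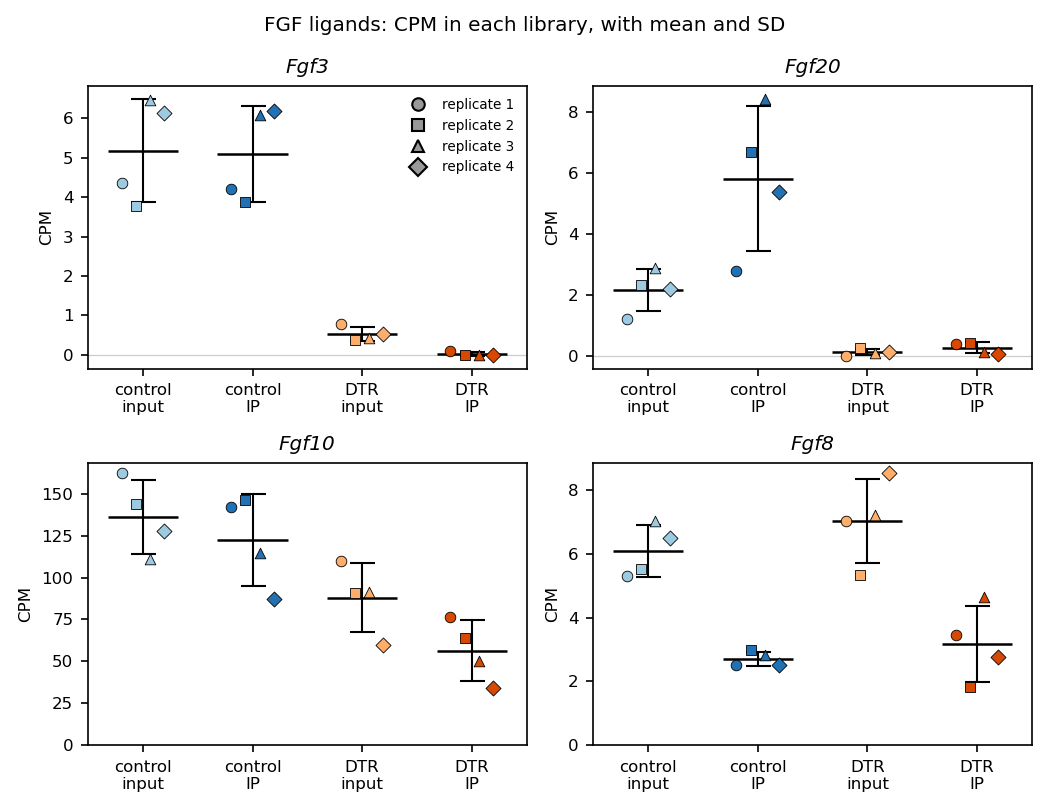
Level of each FGF ligand in CPM (vertical axes, each with its own range) in the input and IP libraries of control and DTR mice. Symbols are replicates, horizontal bars are means and error bars are SD (n = 4). Fgf3 and Fgf20 are below 1 CPM in every DTR library, Fgf10 is lowest in DTR IP (34.3 to 76.7 CPM), and Fgf8 separates IP from input, not DTR from control.

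Of Fgfr1, Fgfr2 and Fgfr3, the one called after damage was Fgfr3 (ENSMUSG00000054252, chr5:33721674-33737068, plus strand). It is expressed in pillar and Deiters' cells and is needed for pillar cell differentiation. Fgfr3 had 162, 188, 207 and 217 CPM in control input and 16.3, 18.4, 13.6 and 28.7 CPM in DTR input. It had 126, 153, 116 and 107 CPM in control IP and 18.5, 21.4, 20.8 and 28.5 CPM in DTR IP. The lowest control library was several times above the highest DTR library in both fractions, with a separation of 3.92 in the IP and 5.59 in the input. Fgfr3 fell with an LFC of -3.32 ± 0.18 in the input (limma, adjusted p = 4.0e-10) and -2.52 ± 0.18 in the IP (adjusted p = 1.5e-08). The Fgfr3 model shares 998 exon bases with G630022F23Rik on the opposite strand. Markers of pillar and Deiters' cells (Prox1, Hey2, Ngfr, Hes5, Lgr5 and S100a1) moved with it: 6 of 6 were lower in the input and 5 of 6 in the IP. Their summed level was 569 to 660 CPM in control input and 308 to 370 CPM in DTR input, and in the IP it was 647 to 914 CPM in control and 270.1 to 386 CPM in DTR. Most of each sum was S100a1, with a mean of 477 CPM in control input and 288 CPM in DTR input. Lgr5 directed the ablation, so its own fall was set by the design. The paper places Lgr5 also in inner phalangeal cells and the lateral GER. None of the 6 was at 0. The part of these markers in the change of Fgfr3 was not tested.

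Fgfr1 (ENSMUSG00000031565, chr8:25513654-25575718, plus strand), which had the highest CPM of Fgfr1, Fgfr2 and Fgfr3, was not called after damage. It had 229, 225, 228 and 244 CPM in control input and 265, 268, 238 and 298 CPM in DTR input. It had 193, 175, 166 and 216 CPM in control IP and 251, 206, 179 and 231 CPM in DTR IP. The DTR library was above the control library of the same number in 4 of 4 cases in each fraction, but no label or method pairs these libraries. The LFC was 0.21 in the input (95% interval -0.03 to 0.46, limma, adjusted p = 0.29) and 0.24 in the IP (-0.004 to 0.49, adjusted p = 0.18).

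Fgfr2 (ENSMUSG00000030849, chr7:130162451-133123350, minus strand), a receptor of Fgf3 and Fgf10, was not called either. It had 113, 118, 126 and 136 CPM in control input and 84.2, 105, 81.5 and 80.3 CPM in control IP. It had 72.1, 103, 98.9 and 162 CPM in DTR input and 82.9, 98.8, 66.4 and 98.3 CPM in DTR IP. The DTR input libraries spread the widest and enclosed all control input values. The LFC after damage was -0.23 in the input (-0.62 to 0.16, limma, adjusted p = 0.53) and -0.05 in the IP (-0.44 to 0.34, adjusted p = 0.90).

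On the scale of CPM per kb, the make-up of Fgfr1, Fgfr2 and Fgfr3 changed with damage. Fgfr3 made up 43.2% ± 2.33 (SD, n = 4) of their summed level in control input and 6.54% ± 1.11 in DTR input. In the IP its share was 38.9% ± 4.09 in control and 9.37% ± 1.68 in DTR. Fgfr1 took 37.7% ± 2.24 of the sum in control input and 67.7% ± 5.67 in DTR input, and 42.3% ± 5.41 in control IP and 65.6% ± 3.60 in DTR IP. A share rises when another falls, and the summed level itself was 62.4 ± 4.90 CPM per kb in control input and 40.3 ± 6.68 in DTR input. A further FGF receptor, Fgfr4, was not part of this sum. Its mean was 21.95 CPM per kb in control input and 25.96 in DTR input, and 20.57 in control IP and 28.61 in DTR IP. Fgfr4 was not called after damage (limma, adjusted p = 0.56 in the input and 0.13 in the IP). With Fgfr4 included, every share would be lower. The uncertain length of Fgfr2 also enters every share.

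**Figure D2:**
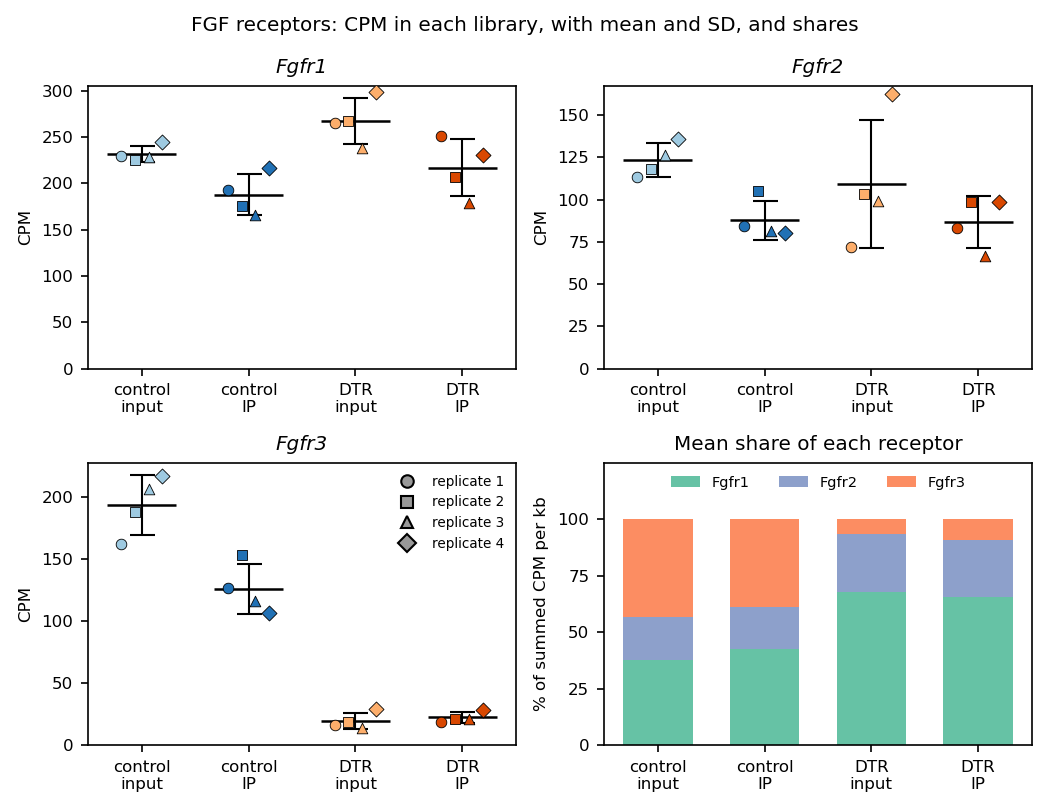
Level of Fgfr1, Fgfr2 and Fgfr3 in CPM per library (symbols are replicates, bars are means, error bars are SD, n = 4), and the mean share of each receptor in their summed CPM per kb for the 4 groups. The mean share of Fgfr3 is 43.2% in control input and 6.54% in DTR input, while Fgfr1 and Fgfr2 overlap between DTR and control in CPM within the IP.

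The Sprouty genes encode intracellular inhibitors that FGF signaling induces. Of the 3, 0 were called after damage in either fraction by the fit without a block. Among all tested genes 5.21% were called lower and 7.17% higher in the input, and 7.3% and 8.44% in the IP. A count of 0 of 3 is near these shares. With the replicate number as a block Spry2 was called lower in both fractions. Spry1 (ENSMUSG00000037211, chr3:37639947-37644598, plus strand) had 33.3, 42.9, 48.0 and 44.5 CPM in control input and 63.3, 59.8, 43.9 and 54.1 CPM in DTR input. In the IP Spry1 ranged from 40.8 to 56.9 CPM in control and from 43.2 to 59.3 CPM in DTR. Its groups overlapped, and the LFC was 0.37 in the input (95% interval 0.07 to 0.67, limma, adjusted p = 0.11) and 0.07 in the IP (-0.23 to 0.37, adjusted p = 0.79). Its exons share 710 bases with Gm42922 on the opposite strand.

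Spry2 (ENSMUSG00000022114, chr14:105891947-105896819, minus strand) had 7.32, 10.9, 6.29 and 7.63 CPM in control input and 6.20, 6.26, 5.03 and 3.08 CPM in DTR input. It had 15.5, 17.7, 17.9 and 7.72 CPM in control IP and 9.06, 9.22, 14.1 and 7.43 CPM in DTR IP. The DTR library was below the control library of the same number in 4 of 4 cases in each fraction, but no label or method pairs these libraries. The input ranges nearly met. The LFC was -0.68 in the input (limma, adjusted p = 0.086) and -0.56 in the IP (adjusted p = 0.14). With the replicate number as a block both were called (adjusted p = 0.018 and 0.040). Without control IP replicate 4, the lowest of its group, the LFC in the IP was -0.78 and was called (adjusted p = 0.032).

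Spry4 (ENSMUSG00000024427, chr18:38586247-38601415, minus strand) had 21.5, 18.6, 15.0 and 16.8 CPM in control input and 15.8, 16.3, 13.6 and 19.5 CPM in DTR input. It had 31.5, 25.9, 29.9 and 15.1 CPM in control IP and 20.2, 27.6, 21.2 and 23.7 CPM in DTR IP. Control and DTR overlapped in both fractions, and control IP replicate 4 was below every DTR IP library. The LFC was -0.16 in the input (-0.54 to 0.21, limma, adjusted p = 0.67) and -0.15 in the IP (-0.53 to 0.23, adjusted p = 0.64).

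**Figure D3:**
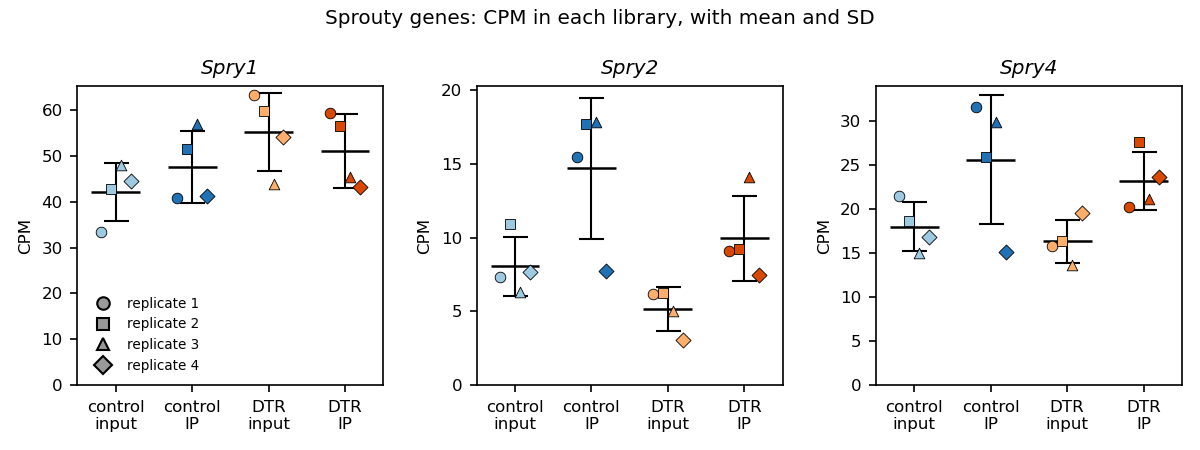
Level of Spry1, Spry2 and Spry4 per library in CPM (symbols are replicates, bars are means, error bars are SD, n = 4). Spry2 and Spry4 are higher in IP than in input on average, and control IP replicate 4 (diamond) is the lowest control IP library for both, at 7.72 and 15.1 CPM.

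To ask which of these genes were relatively more or less abundant on the tagged ribosomes than in the whole homogenate, IP was compared with input within each genotype. In control cochleae Fgf20 and Spry2 were higher in the IP, where 19.3% of all tested genes were called higher, and Fgf8 and Fgfr3 were lower, where 20.7% were called lower. In DTR cochleae Spry2 and Spry4 were higher, where 18.6% of all genes were called higher, and Fgf3, Fgf8 and Fgf10 were lower, where 20.5% were called lower. Counts of 2 or 3 of 10 are near these shares. With the pool as a block, 7 of the 10 and not 4 were called in control (Fgfr1, Fgfr2 and Spry4 in addition). That fit called 4004 of the 16994 tested genes higher and 4295 lower in control. No gene of the 10 reached an LFC of 2 toward the IP, the study's minimum for enrichment.

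Fgf20 was 1.27 ± 0.27 log2 units higher in control IP than in control input (limma, adjusted p = 0.0011), higher in 4 of 4 pools. In DTR cochleae, where the gene was at 0 to 12 reads per library, its LFC was 0.23 (adjusted p = 0.54). By summed reads Fgf20 in the IP was 2.74 times the input level in control (exact interval 2.41 to 3.12) and 2.17 times in DTR (30 reads against 16, interval 1.15 to 4.26). On the recovered reads its LFC in DTR was 1.08 with edgeR (adjusted p = 0.23) and 1.11 with DESeq2 (adjusted p = 0.14), also without a call. Fgf3 was as abundant in control IP as in control input within its spread (LFC 0.08, 95% interval -0.40 to 0.55, adjusted p = 0.82). In DTR cochleae it was 0.91 ± 0.23 log2 units lower in the IP, with an LFC of -0.91 (adjusted p = 0.0036), and by summed reads the IP held 0.0482 times the input level (3 reads against 72, exact interval 0.00971 to 0.147).

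Fgf8 was lower in the IP of both genotypes, with an LFC of -0.90 ± 0.22 in control (limma, adjusted p = 0.0027) and -1.06 ± 0.22 in DTR (adjusted p = 8.2e-04). IP and input did not overlap in either genotype. It is a hair cell gene, and most hair cell markers moved with it, Atoh1 in the other direction (LFC 0.86 in control and 1.09 in DTR). The markers summed to 174 to 255 CPM in control IP and 499 to 710 CPM in control input, and to 257 to 297 CPM in DTR IP and 495 to 656 CPM in DTR input. Their part in the result was not tested. Fgf10 did not differ between IP and input in control (LFC -0.14, adjusted p = 0.63) beyond its spread, and in DTR mice was lower in the IP in 4 of 4 pools (LFC -0.68 ± 0.21, adjusted p = 0.016). Without DTR IP replicate 4 or DTR input replicate 1 that call was lost (LFC -0.48 and -0.58, adjusted p = 0.066 and 0.056).

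Fgfr3 was lower in control IP than in control input (LFC -0.58 ± 0.18, limma, adjusted p = 0.017) in 4 of 4 pools, a call lost without control input replicate 4 (adjusted p = 0.052). In DTR cochleae its LFC between IP and input was 0.22 (adjusted p = 0.37). Fgfr1 was lower in the IP in 4 of 4 pools of each genotype, without a call (LFC -0.26, adjusted p = 0.082 in control, and LFC -0.24, adjusted p = 0.12 in DTR). With the pool as a block both were called (adjusted p = 0.029 and 0.048). Fgfr2 had an LFC of -0.46 in control (adjusted p = 0.056, and 0.0093 with the pool as a block) and -0.28 in DTR (adjusted p = 0.25).

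Spry2 was higher in the IP in 4 of 4 pools of each genotype, with an LFC of 0.82 ± 0.25 in control (limma, adjusted p = 0.012) and 0.94 ± 0.25 in DTR (adjusted p = 0.0053). Spry4 was higher in 4 of 4 DTR pools (LFC 0.47 ± 0.18, adjusted p = 0.047) and in 3 of 4 control pools (LFC 0.45 ± 0.18, adjusted p = 0.053, and 0.016 with the pool as a block). Leaving out any 1 of 6 of the 8 DTR libraries ended the call of Spry4 in DTR (adjusted p 0.061 to 0.14). Spry1 had an LFC of 0.15 in control (adjusted p = 0.42) and -0.14 in DTR (adjusted p = 0.45).

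**Figure D4:**
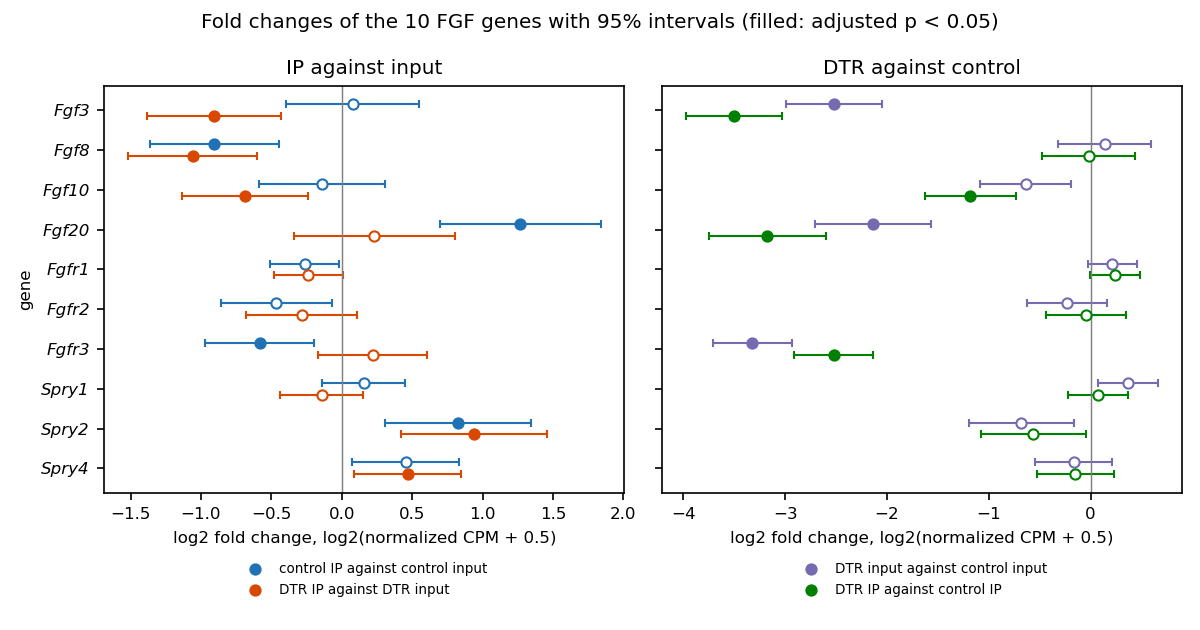
Fold change (horizontal axis, difference of log2(quantile-normalized CPM + 0.5)) of each of the 10 genes with its 95% interval, for IP against input on the left and DTR against control on the right. Filled symbols passed adjusted p below 0.05 in limma. On the right Fgf3, Fgf20 and Fgfr3 lie at -2.14 or lower in both fractions, and on the left Spry2 and Fgf8 lie on opposite sides of 0 in both genotypes.

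Whether damage altered the IP differently from the input was tested as an interaction. None of the 10 genes was called by limma, where 0.0118% of all tested genes were called, and 3 had an unadjusted p below 0.05. The share of all tested genes with such a p is not given here. edgeR called 0 and DESeq2 called 1 of the 10 on the recovered reads. Of all 16994 tested genes edgeR called 0, and DESeq2 called 24 higher and 25 lower. Fgf3 had an interaction of -0.98 ± 0.32 log2 units, that is a larger fall in the IP (unadjusted p = 0.0063, adjusted p = 0.61). For this gene the tools differed: DESeq2 gave -4.40 (adjusted p = 0.0043) and edgeR gave -4.24 (adjusted p = 0.066). Fgf20 had -1.04 ± 0.38 (unadjusted p = 0.015, adjusted p = 0.73), which shrank to -0.42 with edgeR and -0.37 with DESeq2. Fgfr3 had 0.80 ± 0.26, a smaller fall in the IP (unadjusted p = 0.0065, adjusted p = 0.61). With the pool as a block the adjusted p was 0.094 for Fgf3, 0.14 for Fgf20 and 0.076 for Fgfr3.

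Other genes of the pathway were counted in 4 lists. Over all tested genes, 5.21% were called lower and 7.17% higher after damage in the input. In the IP these shares were 7.3% and 8.44%. Of 18 other FGF ligands 10 were tested, and after damage 1 was lower and 0 higher in the IP and 2 were lower and 0 higher in the input. Fgf15, a ligand of the subfamily that acts as a hormone in adults, was lower in both fractions. In control mice its level was 0.677 to 1.71 CPM in the input and 2.42 to 3.56 CPM in the IP, and in DTR mice it was 0 to 0.295 CPM in the input and 0 to 0.107 CPM in the IP. Its LFC was -1.46 in the input (limma, adjusted p = 6.6e-05) and -2.78 in the IP (adjusted p = 1.8e-08), and it was 1.18 higher in control IP than in control input (adjusted p = 1.6e-04). Like Fgf3 and Fgf20, Fgf15 passed the filter through the control libraries alone. By summed reads its control level was 10.4 times the DTR level in the input (165 reads against 14, exact interval 6.01 to 19.4) and 84.8 times in the IP (375 reads against 4, interval 32.9 to 313). Its exons share 787 bases with Gm26793 and Gm39119. The other call was Fgf14 in the input (LFC -0.72), named after its value was seen.

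Of 4 other receptors and co-receptors 3 were tested, and 1 was lower in each fraction. Fgfrl1, a receptor without a kinase domain, had 129 to 190.4 CPM in control input and 63.4 to 106 CPM in DTR input, and in the IP 187 to 253 CPM in control and 69.6 to 107 CPM in DTR. Its groups did not overlap in either fraction, and its LFC was -1.04 in the input (limma, adjusted p = 5.0e-04) and -1.40 in the IP (adjusted p = 1.8e-05). Of 9 other feedback and target genes, among them Dusp6, Etv4 and Etv5, 8 were tested, and 0 were lower in either fraction. In the input 2 were higher, Il17rd (LFC 0.60, adjusted p = 0.011) and Spred2 (LFC 0.54, adjusted p = 0.0097), and in the IP 1 was higher, Il17rd (LFC 0.46, adjusted p = 0.045). Il17rd and Spred2 encode inhibitors of FGF and Ras signaling and were named after their values were seen. The median LFC of this list was 0.18 in the input and 0.19 in the IP, beside -0.02 and 0.00 over all tested genes.

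All 18 intracellular transducers were tested, and Map2k1, which encodes a MAP kinase kinase, was the 1 called after damage, lower in the input (LFC -0.37, limma, adjusted p = 0.017) and in the IP (LFC -0.39, adjusted p = 0.010). It was named after its values were seen. Between IP and input, 3 transducers were higher and 7 lower in control and 4 were higher and 4 lower in DTR. Over all tested genes, 19.3% were higher and 20.7% lower in control, and 18.6% and 20.5% in DTR. Nras, a small GTPase downstream of the receptors, differed most, at 260 to 446 CPM in control IP and 126 to 156 CPM in control input (LFC 1.38, adjusted p = 1.1e-06). In DTR it had an LFC of 1.45 (adjusted p = 8.9e-07).

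**Figure D5:**
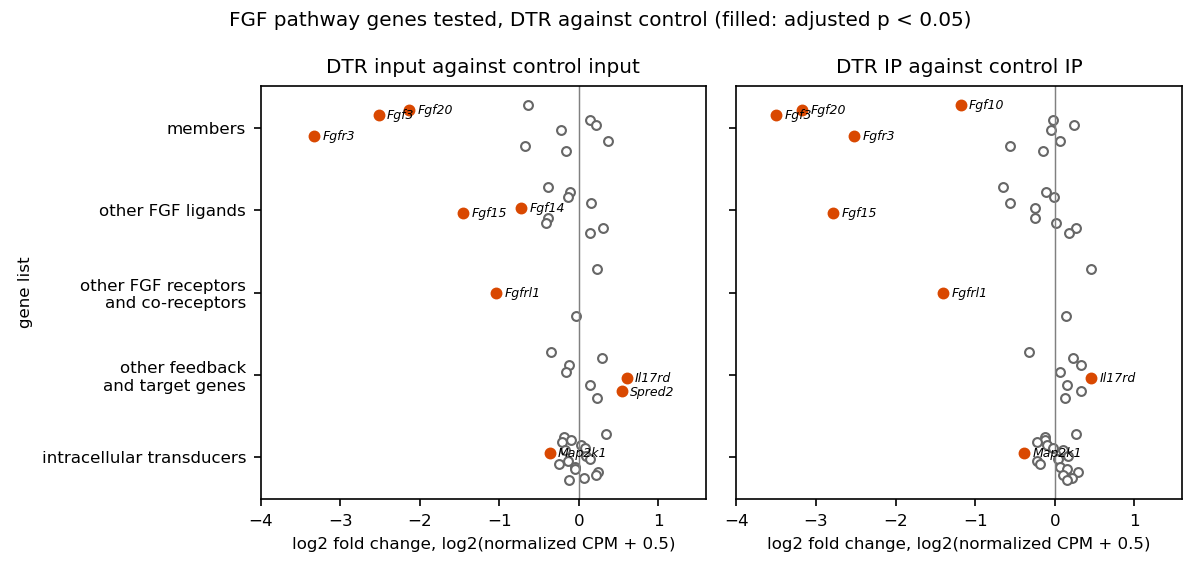
Fold change after damage (horizontal axis, difference of log2(quantile-normalized CPM + 0.5)) of the 10 genes and of the tested genes of 4 FGF pathway lists (rows), in the input on the left and the IP on the right. Filled symbols with names passed adjusted p below 0.05 in limma. Calls to the left of 0 fall among ligands, receptors and Map2k1, and the calls to the right of 0 are Il17rd in both fractions and Spred2 in the input.

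Genes whose profile was most like each member were ranked by Pearson's r of log2 values over the 16 libraries, which is driven by the 4 groups and is given as a description. Fgf3 was most like Asic2 (r = 0.98) and Crhr1 (r = 0.98), Fgf20 most like Wfdc12 and Prr15l (both r = 0.97), and Fgfr3 most like Cep41 (r = 0.97) and Rassf10 (r = 0.97). Fgf10 was most like Mreg (r = 0.97) and Zc2hc1a (r = 0.95), and Fgf8 most like Cd164l2 (r = 0.96) and Cyp4f39 (r = 0.94). Fgfr1 was most like Hdac5 and Ddx39b (both r = 0.94), and Fgfr2 most like Sh3tc1 (r = 0.94) and Top3a (r = 0.93). Spry2 was most like 1300002E11Rik (r = 0.95) and Dynlt3 (r = 0.94), Spry4 most like Gatsl2 (r = 0.89) and Fbxo45 (r = 0.88), and Spry1 most like Fbxo28 (r = 0.86) and Pip5k1a (r = 0.83). Among the members, Fgf3 and Fgfr3 had the highest r of any pair (r = 0.92), Fgf3 and Fgf20 had r = 0.89, and Spry2 and Fgfr1 had the lowest (r = -0.92).

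Markers of other cells also differed between genotypes. Schwann cell markers summed to 2157 to 3811 CPM in control input and 1073 to 1750.5 CPM in DTR input, with 4 of 5 lower. Spiral ganglion markers varied several-fold within each group, from 158 to 743 CPM in control input and from 71.2 to 628 CPM in DTR input, with 0 of 6 called. Mesenchyme markers were higher in 4 of 7 in the IP after damage, where inner phalangeal and GER markers were lower in 2 of 4 each. In the input 2 of 4 GER markers were higher and 1 lower, 1 of 4 inner phalangeal markers was lower and 1 of 7 mesenchyme markers was higher. Their part in the changes of the FGF genes was not tested.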

How the data were processed

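RNA was measured by SMART-Seq v4, which does not mark strand. The authors aligned reads to GRCm38 with HISAT2 and counted them with HTSeq. The deposited processing notes name TopHat. The annotation release and strand setting are not given in the sources used here, so reads of genes that overlap on opposite strands cannot be told apart. Per the labels and file headers, the deposited values are CPM per gene and library. All values (100%) were whole multiples of the value of 1 read within 0.05 of a read, so read counts were recovered. Depth was 28089836 to 41966310 reads on genes, and intervals cover counting error only. Of 50316 genes listed, 2587 were NA in all libraries.

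CPM were quantile normalized, filtered (at least 0.5 CPM in all 4 replicates of 1 group) and log2 transformed with a pseudocount of 0.5. Groups were compared with limma (version 3.58.1, R 4.3.3) over all 16 libraries, with a trend of the variance on the mean, and p-values were adjusted by Benjamini-Hochberg over 16994 genes. Separation is the lowest value of the higher group over the highest of the lower, with a floor of 1.08 CPM. The fit was first tested on simulated data. Alternatives were other normalizations, pseudocounts and filters, the compared groups alone, a replicate block, edgeR (version 4.0.16), DESeq2 (version 1.42.0), and each library left out in turn. Lengths and overlaps came from GENCODE M21. p-values measure the spread between libraries within groups. The fit without a block treats the 16 libraries as independent, although each pool gave 1 input and 1 IP library. Its p-values for IP against input do not measure the spread of differences within pools.

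IP and input of 1 number come from 1 pool, per the methods. Deviations of same-numbered libraries from their group means correlated in every pair, also between control and DTR (lowest r = 0.29). Deviations within a group sum to 0, so the negative average for other numbers (-0.12 to -0.13) follows from this and is no separate contrast. The fit with a replicate block is a paired fit by number. Between control and DTR no label or method names such a pairing, and it was inferred from these data. The reported values come from the fit without a block, and blocked values are given where they change a call. Named genes were all 10 members, listed pathway genes with adjusted p below 0.05 and an absolute LFC of at least 1, and the 2 genes most correlated with each member. Members and lists were chosen with earlier results of these data known.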

Additional observations from a re-analysis of the deposited data

Results flagged for a closer look

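In 40 groups of 4 libraries (10 genes, 4 groups), 2 libraries stood apart from the other 3 by Dixon's criterion, which chance meets in about 1 of 20 groups. Fgf3 in DTR IP replicate 1 was at 0.0964 CPM, from 3 reads, where the other 3 libraries were at 0. Fgfr2 in control IP replicate 2 was at 105 CPM, where the other 3 libraries were at 80.3 to 84.2 CPM, and without this library Fgfr2 was called lower in control IP than in control input (LFC -0.54, limma, adjusted p = 0.045).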

How the results depend on the processing

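The falls of Fgf3, Fgf20 and Fgfr3 after damage kept their direction and their call in both fractions under every alternative run, and so did that of Fgf10 in the IP. For Fgf3 in the IP the LFC ranged from -7.75 to -2.65 over the alternatives other than leaving out a library, DESeq2 giving the first and a pseudocount of 1 the second. The number of the 10 genes called moved by more than 1.5 times in 4 comparisons. With the replicate block, which pairs libraries of the same number, 7 and not 4 were called for control IP against control input and 5 and not 3 for DTR input against control input, and the block added Fgfr1 for DTR IP against DTR input and Spry2 for DTR IP against control IP and changed no other call. The block also called more of all tested genes in each of these comparisons. Without a filter on low values 3 and not 5 were called for DTR IP against DTR input, and DESeq2 called 1 and not 0 for the interaction. For the interaction DESeq2 called 24 higher and 25 lower of all 16994 tested genes. The cause of these moves was not tested. With 1 library left out in turn, the number called ranged from 3 to 6 for control IP against control input, from 3 to 6 for DTR IP against DTR input, from 4 to 5 for DTR IP against control IP and from 3 to 4 for DTR input against control input, and was 0 for the interaction.

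Directions turned only for values near 0 that were not called. Fgf3 in control IP against control input was -0.020 on the deposited CPM and -0.027 with median centring. Fgf8 in DTR IP against control IP was 0.14 on the deposited CPM, 0.093 with median centring, 0.15 with edgeR and 0.15 with DESeq2. The interaction of Fgfr1 was -0.028 with median centring, -0.065 with edgeR and -0.042 with DESeq2, and that of Spry4 was -0.058 with edgeR and -0.032 with DESeq2. With 1 library left out the ranges were -0.077 to 0.23 for Fgf3 in control IP against control input, -0.21 to 0.18 for Fgf8, -0.14 to 0.074 for Fgfr2 and -0.012 to 0.17 for Spry1 in DTR IP against control IP, and, for the interaction, -0.35 to 0.042 for Fgf8, -0.049 to 0.12 for Fgfr1, -0.011 to 0.39 for Fgfr2, -0.10 to 0.23 for Spry2 and -0.17 to 0.11 for Spry4.

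Depth limits Fgf3 and Fgf20 in DTR libraries, which held at most 26 reads.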
